A study of Mus musculus with 20 samples.

Results

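*Npas4*, *Arc*, *Homer1*, *Nptx2* and *Inhba* are genes that neurons are known to transcribe when they fire, and they were measured here in cultured mouse dorsal root ganglion (DRG) neurons after 2 patterns of electrical stimulation. They were chosen by name, as every probe other than control probes whose gene name in the array annotation was 1 of these 5. This gave 5 of the 30222 gene names on the array and 10 of its 39429 probes, with 1 probe each for *Npas4*, *Arc* and *Inhba*, 2 for *Nptx2* and 5 for *Homer1*. A probe is a DNA strand of 60 bases that binds 1 stretch of a transcript, and its fluorescence is given below as a normalized log2 signal.

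The neurons came from mouse embryos of 13.5 days and were grown for 3 to 4 weeks in chambers with 5% horse serum, after 5 days of fluorodeoxyuridine (13 µg/ml), which stops the division of other cells. All groups spent the night before the experiment without serum. The unstimulated neurons were handled like the others but received no current. The stimulated neurons received biphasic pulses of 6 V and 0.2 ms, either 18 action potentials every 1 min (18/1) or 90 every 5 min (90/5), for 2 hr or 5 hr, which is the same mean rate in both patterns. Each of the 5 conditions had 4 samples on 2 arrays, with 1 sample in the colour Cy3 and 1 in Cy5 on each array. The methods call the samples of an array biological replicates and give each condition as 5 pooled cultures, without saying whether each sample was such a pool, so that the p-values below measure only the spread between these samples.

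NPAS4 is a transcription factor of the bHLH-PAS family that is made after calcium enters a neuron and binds DNA together with ARNT or ARNT2. ARC and HOMER1 act on the receiving side of excitatory synapses: ARC drives the uptake of AMPA receptors with dynamin and endophilin, and HOMER1 ties metabotropic glutamate receptors to IP3 receptors and to SHANK scaffolds. The long variants of HOMER1 join to each other through a coiled coil, and the short variant, which lacks it and is the one known to be induced by activity, competes with them. NPTX2 is a secreted pentraxin that gathers AMPA receptors, and INHBA is the subunit of activin A, a secreted factor that signals through ACVR2A or ACVR2B and SMAD2 or SMAD3. Sensory neurons of the DRG receive no synapses on their cell bodies in the animal.

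The 250 bases before the transcription start are shown for the genes with an entry in the RefSeq promoter table (build GRCm38.p6), since the rapid response of such genes runs through short motifs there. The table matched 3 of the 5 genes with 4 windows, and *Arc* and *Nptx2* had none. They are written 5′ to 3′ on the strand of the gene, and the capitals mark TGACG on either strand, the core of the cAMP and calcium response element.
Npas4, chr19:4989972-4990221, minus strand: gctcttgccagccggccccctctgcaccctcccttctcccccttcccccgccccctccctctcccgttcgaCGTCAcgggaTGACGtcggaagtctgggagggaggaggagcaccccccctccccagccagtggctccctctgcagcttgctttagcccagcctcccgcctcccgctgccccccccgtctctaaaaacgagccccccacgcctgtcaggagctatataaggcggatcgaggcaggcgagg
Homer1, chr13:93303507-93303756, plus strand: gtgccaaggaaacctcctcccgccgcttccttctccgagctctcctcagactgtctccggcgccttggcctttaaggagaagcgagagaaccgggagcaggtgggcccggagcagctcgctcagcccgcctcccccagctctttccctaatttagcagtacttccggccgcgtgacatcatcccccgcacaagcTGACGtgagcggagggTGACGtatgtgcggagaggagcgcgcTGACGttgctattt
Inhba, chr13:16011601-16011850, plus strand: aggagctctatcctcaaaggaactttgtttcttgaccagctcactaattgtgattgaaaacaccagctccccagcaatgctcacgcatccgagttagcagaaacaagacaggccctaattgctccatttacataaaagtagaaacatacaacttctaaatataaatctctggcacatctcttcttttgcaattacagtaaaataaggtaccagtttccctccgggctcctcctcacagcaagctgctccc
The *Npas4* window held 2 matches, beginning 179 and 169 bases before the start, and the *Homer1* window printed here held 3, at 56, 40 and 14 bases. The *Inhba* window and the second *Homer1* window, chr13:93307784-93308033, held 0. Of 32851 promoter windows of this length, 17.8% held TGACG. The whole element TGACGTCA, which contains TGACG on both strands and is held by 1.55% of windows, the AP-1 motif TGANTCA (6.75%), the NPAS4 core motif TCGTG (13.3%) and the CArG box of serum response factor (1.47%) each had 0 matches in all 4 windows, searched on both strands.

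The 5 *Homer1* probes do not read the same transcript, and the sequences of a pair of them are shown because they decide what can be said of the short variant. By the annotation, A_55_P1982111 (chr13:94174815-94174874, build mm9) and A_66_P104134 (chr13:94157507-94157566) belong to the long variant, and A_55_P2122789 (chr13:94116595-94116654), A_55_P1982122 and A_55_P1982121 to the short one. The pair lies 85 bases apart in the genome, and the capitals in the second sequence mark its last 3 bases, the stop codon of the short variant.
A_55_P1982122, chr13:94125924-94125983, plus strand: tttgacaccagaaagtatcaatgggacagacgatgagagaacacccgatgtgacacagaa
A_55_P1982121, chr13:94126009-94126068, plus strand: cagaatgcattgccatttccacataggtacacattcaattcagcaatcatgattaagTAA
Of the 3 probes annotated to the short variant, A_55_P1982121 is the one that holds its end, and whether the other two also bind long transcripts was not tested. The remaining genes were read by A_55_P1975215 for *Npas4* (chr19:4984356-4984415), A_55_P2021810 for *Arc* (chr15:74499592-74499651), A_52_P187058 and A_55_P2147696 for *Nptx2* (chr5:145317905-145317964 and chr5:145317727-145317786) and A_51_P239750 for *Inhba* (chr13:16118634-16118693).

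Slides, of which there were 3, each carried up to 4 arrays. Unstimulated neurons (arrays 1 and 2) shared slide 1 with 18/1 2 hr (arrays 3 and 4). On slide 2 were 18/1 5 hr (arrays 5 and 6) and 90/5 2 hr (arrays 7 and 8), and 90/5 5 hr was alone on slide 3 (arrays 9 and 10). Of the 8 comparisons below, 18/1 2 hr against unstimulated neurons lay within a slide. In the other 7, an effect of the slide cannot be told apart from one of the condition. The median spot was 2.27 to 2.94 times its background on slide 1, 3.64 to 10.4 times on slide 2 and 2.66 to 4.91 times on slide 3. The scanner software marked 45 to 14642 spots per sample as non-uniform on slide 2, with the most on arrays 5, 6 and 8, against 6 to 36 on slide 1 and 37 to 85 on slide 3. Correlation between samples of a condition was lowest at 18/1 5 hr (Pearson r 0.928 to 0.995). All 8 markers of sensory neurons were well above background in the 4 unstimulated samples, as were 5 of 6 Schwann and satellite cell markers, 4 of 4 fibroblast and 3 of 3 macrophage markers. The methods speak of dissociation from spinal cords, and of 6 spinal cord markers 2 were well above background in these samples and *Mnx1* and *Olig2* were not in any. The summed fibroblast markers were 15.53 to 15.89 (log2) at 18/1 5 hr against 13.64 to 14.98 in unstimulated samples. The summed sensory neuron markers were 17.43 to 17.89 against 17.98 to 18.06. The summed endothelial markers were 7.59 to 7.80 at 18/1 5 hr and 7.55 to 8.51 at 90/5 2 hr, against 8.57 to 9.02 unstimulated. Summed spinal cord markers were 9.39 to 9.46 at 90/5 2 hr and 9.94 to 10.45 at 90/5 5 hr, against 9.54 to 9.68 unstimulated. Among the markers, *Avil* of sensory neurons and *Pecam1* of endothelial cells fell and *Csf1r* of macrophages rose at 18/1 5 hr. Their part in the results below was not tested. In such cultures, fewer cells of a type and less RNA per cell cannot be told apart.

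Each member was tested by its brightest probe in limma, fitted across all 39429 probes and 20 samples, with a Benjamini-Hochberg adjusted p under 0.05 as the threshold within each comparison. The 4 comparisons with unstimulated neurons share those samples. At 18/1 2 hr, 0 of 5 members were called, where 0.00507% of all probes were called, with 1 member (*Npas4*) at an unadjusted p under 0.05 and 0 by the methods' t-test after adjustment (1 before). At 18/1 5 hr 2 of 5 were called, *Npas4* higher and *Inhba* lower, against 25.4% of all probes. At 90/5 2 hr 1 of 5 was called, *Npas4* higher, against 1.37% of all probes, and at 90/5 5 hr again 1 of 5, *Npas4* higher, against 0.0457%. Between the patterns, 0 of 5 members were called at 2 hr (1.13% of all probes; 0 members at an unadjusted p under 0.05, and 1 by the methods' t-test before and 0 after adjustment) and 1 of 5 at 5 hr, *Inhba* higher at 90/5 (26.8%). Between the times, 1 of 5 was called for 18/1, *Inhba* lower at 5 hr (24.9%), and 0 of 5 for 90/5 (2.73%; 0 at an unadjusted p under 0.05 and 0 by the methods' t-test). The comparisons of the 18/1 5 hr samples thus had 24.9% to 26.8% of all probes called, and 1 or 2 of 5 members is near that share.

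*Npas4* had the largest rise of the 5 members in each comparison with unstimulated neurons in which it was called. In the 4 unstimulated samples its log2 signal was 7.12, 7.72, 7.32 and 7.45, and its spots were 1.39 to 2.87 times as bright as their background. After 18/1 for 2 hr the signal was 11.42, 12.77, 12.24 and 11.70, and after 5 hr it was 11.94, 12.15, 12.47 and 12.25. All 8 of these samples lay above every unstimulated sample. After 90/5 the signal was 12.67, 13.60, 13.09 and 12.76 at 2 hr and 12.20, 13.28, 14.22 and 13.14 at 5 hr, with the highest value of all in the Cy3 sample of array 10. None of the 4 stimulated conditions overlapped the unstimulated samples, while the ranges overlapped between the patterns at each time and between the times of each pattern.

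Against unstimulated neurons (7.40 ± 0.25, mean ± SD, n = 4), *Npas4* rose by 4.80 (SE 0.75) on the log2 scale at 18/1 5 hr, which is 27.8-fold (limma adjusted p = 0.000383). It rose 49.4-fold at 90/5 2 hr (log2 difference 5.63, adjusted p = 0.00112) and 56.0-fold at 90/5 5 hr (5.81, adjusted p = 0.00295). At 18/1 2 hr the difference was 24.7-fold (4.63, 95% interval 3.05 to 6.21), with 4 of 4 samples above all unstimulated ones, and it did not pass the threshold (adjusted p = 0.0958). It passed in 12 of 18 alternative settings, an unadjusted test among them. Slide 1 alone and the 2 conditions alone are the same fit, counted under both names. That fit holds no slide term, and its adjusted p was 0.0037. Another fit, of the unstimulated, 18/1 2 hr and 90/5 5 hr samples, took the replicate number as a block in place of the array and colour. That fit treats the 2 samples of an array as independent. There the adjusted p was 0.000469 and *Npas4* was called, with 0.071% of all probes called. It also passed without array 5, 6, 7 or 8 (adjusted p between 0.00751 and 0.0376), none of which holds a sample of this comparison. The size depended on the processing, and with the scanner's processed signals the log2 differences were 6.01 and 5.75 after 18/1 (2 hr, then 5 hr) and 7.13 and 7.09 after 90/5. The calls at 90/5 were lost without array 1 (adjusted p = 0.0532 at 2 hr and 0.163 at 5 hr) and without array 2 (0.0573 and 0.115), which leave 1 unstimulated array, while the difference stayed between 5.61 and 5.82. By the methods' rule a gene is turned on where its spots are under 2 times the background in all unstimulated samples. *Npas4* reached that brightness in 2 of the 4 and so was not turned on by it, and it also fails the methods' filter on dim spots.

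**Figure D1:**
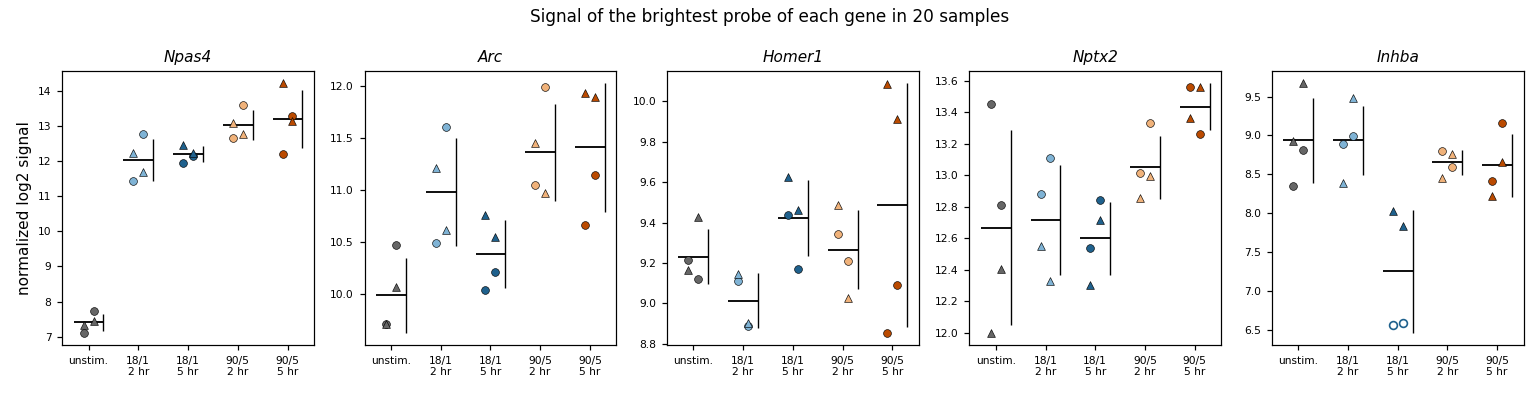
Normalized log2 signal (y axis, a scale of its own in each panel) of the brightest probe of each gene in the 5 conditions (x axis). Circles and triangles are the lower and the higher numbered array of a condition, the left point of a pair is Cy3 and the right one Cy5, open symbols are not well above background, horizontal lines are means of 4 samples and vertical lines 1 SD. The stimulated *Npas4* samples sit at 11.42 or above and the unstimulated ones at 7.72 or below, and *Inhba* on array 5 (18/1 5 hr) is open, at 6.57 and 6.59.

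No difference in *Npas4* between the 2 patterns was called in the fit with the array as a block. It was 1.00 log2 units higher after 90/5 than after 18/1 at 2 hr (95% interval -0.58 to 2.58, adjusted p = 0.607) and 1.01 higher at 5 hr (-0.58 to 2.59, adjusted p = 0.337). The difference at 5 hr was called with median centring alone (1.65, adjusted p = 0.0178) and without the array as a block (adjusted p = 0.0216), and the one at 2 hr passed the methods' t-test before adjustment. A longer stimulation changed the signal by 0.17 within 18/1 (-1.41 to 1.75) and by 0.18 within 90/5 (-1.40 to 1.76), neither past the threshold. Within slide 2, a comparison chosen after the data were seen, the 90/5 2 hr samples were 0.83 higher than the 18/1 5 hr samples (SE 0.75, adjusted p = 0.537) and did not overlap them. The genes whose signal followed *Npas4* most closely over the 20 samples were *Nr4a1*, a nuclear receptor (Pearson r = 0.988), *C2cd4b* (0.976) and *Fos*, a subunit of the AP-1 factor (0.961), out of 16591 gene names. These correlations are a description over samples that share arrays and slides. *Nr4a1* went from 8.32 in unstimulated samples to between 12.76 and 13.83 in the stimulated conditions.

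*Arc* was well above background in all 20 samples, including the unstimulated ones. Its log2 signal there was 9.72, 10.47, 9.71 and 10.07, or 15.0 to 20.5 times the background. After 18/1 it was 10.49, 11.61, 11.21 and 10.62 at 2 hr and 10.03, 10.21, 10.76 and 10.54 at 5 hr. After 90/5 it was 11.05, 11.99, 11.46 and 10.97 at 2 hr and 10.66, 11.14, 11.94 and 11.90 at 5 hr. In 3 of the 4 conditions (18/1 2 hr, 90/5 2 hr and 90/5 5 hr) every sample lay above every unstimulated one, and at 18/1 5 hr the groups overlapped.

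None of the 4 *Arc* differences passed the threshold. They were 1.99-fold at 18/1 2 hr (log2 difference 0.99, SE 0.60, adjusted p = 1.00), 1.32-fold at 18/1 5 hr (0.40, adjusted p = 0.664), 2.59-fold at 90/5 2 hr (1.37, 95% interval 0.12 to 2.63, adjusted p = 0.289) and 2.67-fold at 90/5 5 hr (1.42, 0.17 to 2.67, adjusted p = 1.00). Without the array as a block, the 90/5 differences were called (adjusted p = 0.0068 at 2 hr and 0.0485 at 5 hr). The sign at 18/1 5 hr turned with the scanner's processed signals (-0.42) and where each sample was only centred on its median (-0.40). Between the times, the signal differed by -0.59 for 18/1 (95% interval -1.85 to 0.66) and by 0.045 for 90/5 (-1.21 to 1.30). Between the patterns, 90/5 was 0.38 above 18/1 at 2 hr (-0.87 to 1.64) and 1.02 above it at 5 hr (-0.23 to 2.28, adjusted p = 0.213). The latter was called with median centring alone (1.92, adjusted p = 0.0034) and without the array as a block (adjusted p = 0.0113), and the difference between the times for 18/1 was called with median centring alone (-1.35, adjusted p = 0.0417). The genes nearest to *Arc* over the 20 samples were *Csrnp1* (r = 0.917), *Egr1*, a zinc finger factor of the rapid response (0.899), and *Areg*, an EGF receptor ligand (0.866). The correlation of *Arc* with *Npas4* was 0.774, and those of the other pairs of members were -0.24 to 0.52.

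**Figure D2:**
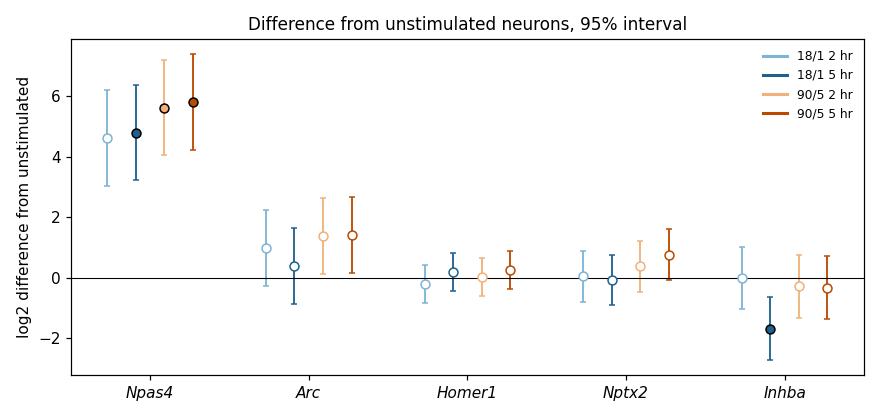
Log2 difference from unstimulated neurons (y axis) for the brightest probe of the 5 genes (x axis) in the 4 stimulated conditions (colours). Points are limma estimates with 95% intervals, filled where the adjusted p is under 0.05. *Npas4* lies between 4.63 and 5.81, and the filled point below 0 is *Inhba* at 18/1 5 hr.

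*Homer1* showed no called difference by its brightest probe, A_55_P1982111 of the long variant, in the fit with the array as a block and equal weights. With array weights it was called higher at 18/1 5 hr than at 18/1 2 hr (0.60, adjusted p = 0.027). Its signal was 9.12 to 9.43 in unstimulated samples, 8.89 to 9.15 at 18/1 2 hr, 9.17 to 9.63 at 18/1 5 hr, 9.02 to 9.48 at 90/5 2 hr and 8.85 to 10.09 at 90/5 5 hr. Within 90/5 5 hr the arrays stood apart, with 8.85 and 9.09 on array 9 and 10.09 and 9.91 on array 10. The differences from unstimulated neurons were between -0.22 and 0.25 (SE 0.30 each), the widest 95% intervals running from -0.84 to 0.88.

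The end of the short variant was at or near background. A_55_P1982121 was well above background in 4 of 20 samples, in 0 of 4 unstimulated and 0 of 4 90/5 2 hr samples, and its spots were 1.04 to 1.31 times their background in unstimulated samples. Its signal was 6.71 to 6.86 there, 6.64 to 6.91 at 18/1 2 hr, 6.42 to 6.69 at 18/1 5 hr, 6.40 to 6.65 at 90/5 2 hr and 6.78 to 6.95 at 90/5 5 hr. The measured means were 6.89 at 90/5 5 hr, where 2 of 4 samples were well above background, and 6.79 in unstimulated samples, and no difference from them was called. A level this near to the background cannot show whether the short variant changed. Its neighbour 85 bases upstream, A_55_P1982122, read 7.40 to 7.57 in unstimulated samples, 7.50 to 7.65 at 18/1 2 hr and 6.41 to 6.71 at 18/1 5 hr, where 1 of 4 samples was well above background. At 90/5 2 hr it read 7.85 and 7.86 on array 7 and 7.06 and 7.05 on array 8, where it was not well above background, and at 90/5 5 hr 7.54 to 8.10. Before normalization, its spots were 1.61 to 3.76 times their background at 18/1 5 hr, against 1.79 to 2.56 times in unstimulated samples.

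The signal of this probe, which at 18/1 5 hr rests on 1 of 4 samples well above background, fell by 0.91 at 18/1 5 hr against unstimulated neurons (SE 0.23, adjusted p = 0.00785) and by 1.00 against 18/1 2 hr (adjusted p = 0.00468), and it was 1.22 higher at 90/5 5 hr than at 18/1 5 hr (adjusted p = 0.00104). The brightest probe had the opposite sign in the first pair of these comparisons (0.19 and 0.41, neither called). The call against unstimulated neurons was lost without array 1 (adjusted p = 0.0621) and without array 2 (0.0912), the one against 18/1 2 hr without array 4 (0.063), and with the scanner's processed signals the first was -2.32. The long-variant probe A_66_P104134 went the way of A_55_P1982122 at 18/1 5 hr without being called (-0.60, adjusted p = 0.171), with 7.07, 7.34, 7.58 and 7.51 against 7.85 to 8.04 in unstimulated samples, and 3 of these 4 spots were marked non-uniform. A_55_P2122789 differed by -0.19 (adjusted p = 0.512), also with 3 of 4 spots marked. So 1 of 5 *Homer1* probes was called at 18/1 5 hr, where 25.4% of all probes were. The nearest genes to the brightest probe were *Ttll11* (r = 0.889), *Rnf128* (0.847) and *Zbtb9* (0.83).

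**Figure D3:**
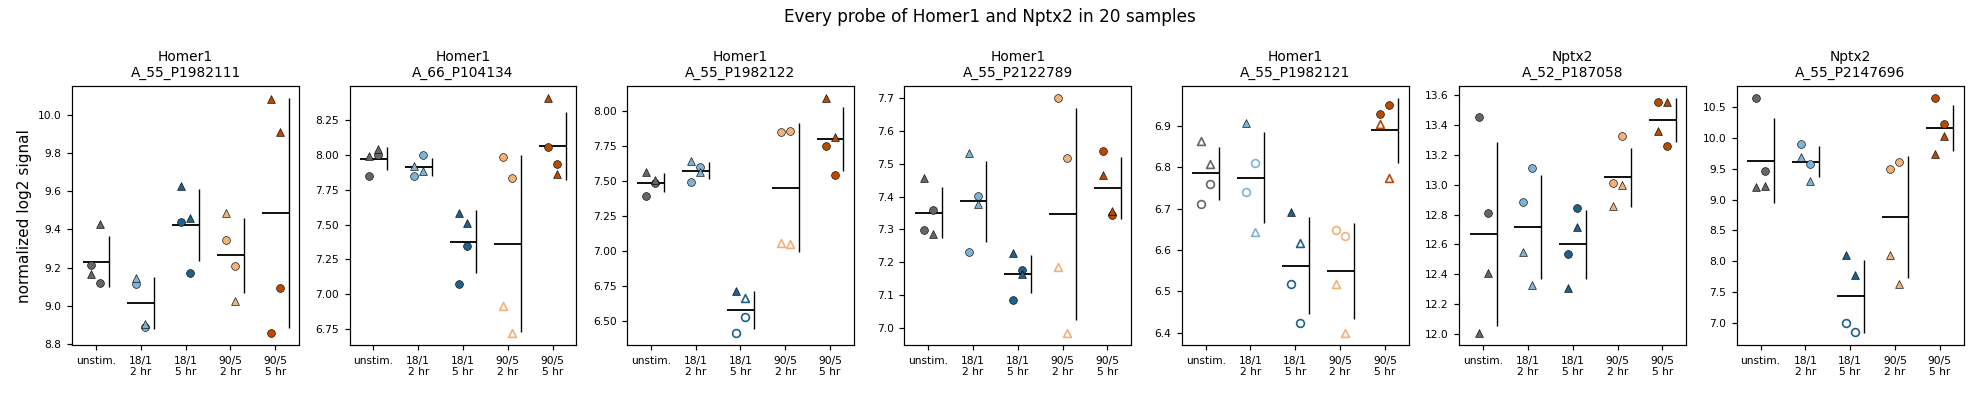
Normalized log2 signal (y axis, a scale of its own in each panel) of the 5 *Homer1* and 2 *Nptx2* probes in the 5 conditions (x axis). Symbols are as in the plot of the 5 genes, with open symbols for samples not well above background, lines for means and 1 SD. A_55_P1982121 is open in 16 of 20 samples, and A_55_P2147696 lies at 6.85 to 8.09 at 18/1 5 hr while A_52_P187058 stays at 12.30 or above in that condition.

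*Nptx2* was bright in every condition by its main probe and was not called in any of the 8 comparisons in the fit with the array as a block. A_52_P187058 read 13.45, 12.81, 12.00 and 12.40 in unstimulated samples, 76.3 to 158 times the background. After 18/1 it read 12.88, 13.11, 12.55 and 12.33 (2 hr) and 12.54, 12.84, 12.30 and 12.71 (5 hr). After 90/5 it read 13.02, 13.33, 12.86 and 13.00 (2 hr) and 13.56, 13.26, 13.36 and 13.56 (5 hr). The unstimulated samples spread the most, and their Cy3 sample of array 1 lay within the range of 90/5 5 hr. At 90/5 5 hr all samples lay above all 18/1 5 hr samples (log2 difference 0.84, 1.79-fold, adjusted p = 0.125). This difference was called in 6 of 16 alternative settings, among them no array block (adjusted p = 0.00919), array weights (1.04, 0.0155) and median centring alone (1.35, 0.023). Against unstimulated neurons the differences were 0.05, -0.07, 0.38 and 0.77 at 18/1 2 hr, 18/1 5 hr, 90/5 2 hr and 90/5 5 hr (SE 0.40), the last with a 95% interval of -0.07 to 1.60.

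The second *Nptx2* probe, A_55_P2147696, which begins 178 bases away, gave another picture at 18/1 5 hr. It read 10.65, 9.46, 9.20 and 9.21 in unstimulated samples, 9.30 to 9.90 at 18/1 2 hr and 9.74 to 10.65 at 90/5 5 hr. At 18/1 5 hr it read 7.0 and 6.85 on array 5, not well above background, and 8.09 and 7.77 on array 6. It fell 4.60-fold there against unstimulated neurons (-2.20, SE 0.55, adjusted p = 0.00779) and 4.55-fold against 18/1 2 hr (adjusted p = 0.0083), and 90/5 5 hr was 6.66-fold above 18/1 5 hr (adjusted p = 0.00175). Without array 5 the first of these was -1.70 (adjusted p = 0.0431), and without array 1 it was -1.78 and not called (0.0739), while with the scanner's processed signals it was -3.40. The second was not called without array 3 (0.0939) or array 4 (0.0655). At 90/5 2 hr, on the same slide, it read 9.50 and 9.61 on array 7 and 8.11 and 7.64 on array 8. The probes differ in base content, with 43.3% G and C in A_52_P187058 and 55.0% in A_55_P2147696, and with each sample's trend on GC content removed the fall was -1.79 (adjusted p = 0.0204). The nearest genes to the main probe were *Cryl1* (r = 0.774), *Ak5* (0.715) and *Dpf2* (0.701), the weakest likeness of the 5 members.

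*Inhba* was lower at 18/1 5 hr than in the other conditions. Its log2 signal was 8.35, 8.81, 8.92 and 9.67 in unstimulated samples, 8.89, 8.99, 8.39 and 9.48 at 18/1 2 hr, 8.80, 8.60, 8.46 and 8.76 at 90/5 2 hr and 8.42, 9.16, 8.22 and 8.66 at 90/5 5 hr. At 18/1 5 hr it was 6.57 and 6.59 on array 5, where it was not well above background, and 8.03 and 7.84 on array 6. All 4 of these samples lay below every sample of the other conditions. Before normalization, the *Inhba* spots were 2.10 and 2.81 times their background on array 5 and 9.87 and 11.4 times on array 6. In unstimulated samples they were 4.47 to 11.8 times their background, so on array 6 the fall appears after normalization only.

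*Inhba* fell 3.21-fold at 18/1 5 hr against unstimulated neurons (-1.68, SE 0.49, adjusted p = 0.0193) and 3.21-fold against 18/1 2 hr (adjusted p = 0.0196), and it was 2.57-fold higher at 90/5 5 hr than at 18/1 5 hr (1.36, adjusted p = 0.0488). The size depended on the processing, and the 3 differences were -3.68, -3.68 and 3.29 with the scanner's processed signals and -0.73, -0.87 and 0.64 with array weights, where the first and the third were not called (adjusted p = 0.0511 and 0.109). Without array 5 the differences were -1.0, -1.0 and 0.68, and none was called (adjusted p = 0.0999, 0.102 and 0.259). The first was also lost without array 1 (-2.04, adjusted p = 0.0657) and array 2 (-1.33, 0.198), the second without array 3 (-1.68, 0.127) and array 4 (-1.68, 0.0865), and the third was not called without 7 of the 10 arrays, array 6, 7 and 8 being the exceptions. Within slide 2, the 90/5 2 hr samples were 2.64-fold above the 18/1 5 hr samples without overlap (1.4, SE 0.49, adjusted p = 0.0959, with 6.31% of all probes called). In the other 3 stimulated conditions *Inhba* differed from unstimulated neurons by -0.0024, -0.29 and -0.32, with 95% intervals within -1.36 and 1.03. The nearest genes were *Prl2c1*, *Arhgef5* and *Tnfaip2* (r = 0.951 each). Their lowest means, 7.47, 7.05 and 7.90, were at 18/1 5 hr, which follows from choosing them by this correlation.

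**Figure D4:**
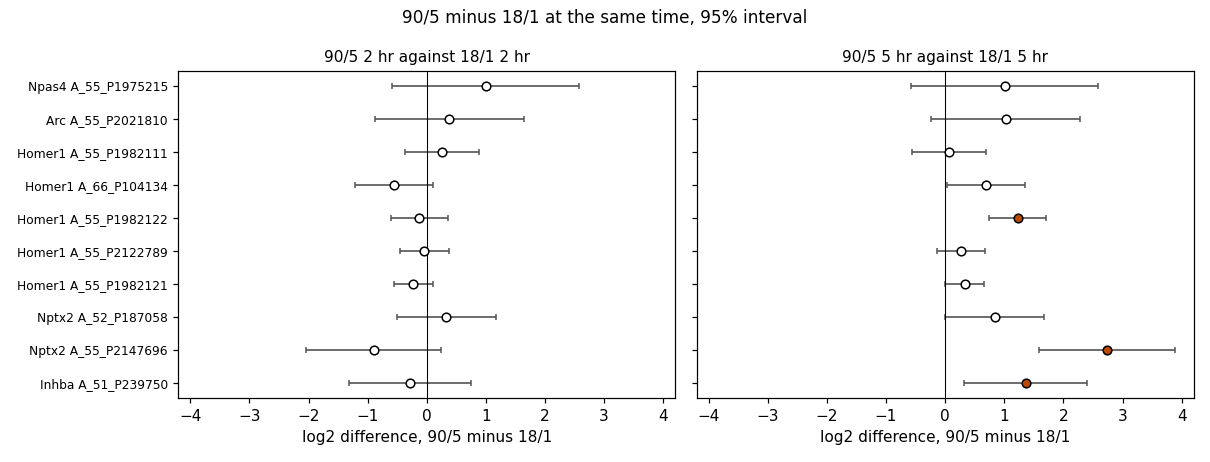
Log2 difference between 90/5 and 18/1 (x axis) at 2 hr (left) and 5 hr (right) for each of the 10 probes (y axis). Points are limma estimates with 95% intervals, filled where the adjusted p is under 0.05. No point is filled at 2 hr, and 3 are at 5 hr, at 1.22, 2.73 and 1.36.

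Whether the difference between the patterns itself differed between 5 hr and 2 hr was tested by the interaction in the same fit. For the brightest probes it was 0.0097 for *Npas4* (SE 1.06), 0.64 for *Arc*, -0.19 for *Homer1*, 0.50 for *Nptx2* and 1.64 for *Inhba*, with adjusted p between 0.0895 (*Inhba*) and 0.996 (*Npas4*). At the same threshold 26.2% of all probes passed, and so did 3 of the 10 probes of the 5 genes, near that share. These were A_55_P2147696 of *Nptx2* (3.64, adjusted p = 0.00273) and 2 of *Homer1*, A_55_P1982122 (1.35, 0.00568) and A_66_P104134 (1.24, 0.0467). The interaction sets conditions on slides 1 and 3 against those on slide 2. An effect of the slide therefore cannot be told apart from a change of the pattern difference with time.

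The other genes of these pathways were taken from lists chosen with earlier results of these data known, and each was read by its brightest probe. At 18/1 2 hr and 90/5 5 hr, where 0.00507% and 0.0457% of all probes were called, no pathway gene was called in the lists of NPAS4 partners (2 genes), ARC-binding proteins (7), the Homer family and its partners (9), pentraxins and AMPA receptor subunits (5 measured of 6, *Nptxr* having no probe by that name), the activin pathway (14) or other effector genes of activity (9). At 90/5 2 hr 1 was called, *Sh3gl1*, an endophilin that works with ARC, which was lower (-1.27, adjusted p = 0.0421), where 1.37% of all probes were called. At 18/1 5 hr 9 were called, where 25.4% of all probes were.

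Of the NPAS4 partners, *Arnt* rose by 1.38 at 18/1 5 hr (adjusted p = 0.003) and *Arnt2* was not called (-1.01). Of the 7 ARC-binding proteins 1 rose, the endophilin *Sh3gl3* (1.05, adjusted p = 0.0403), and 1 fell, *Sh3gl1* (-2.53, adjusted p = 5.41e-05). Of 9 genes of the Homer group 1 fell, the scaffold *Shank1* (-0.94, adjusted p = 0.0146). Of the pentraxins and AMPA receptor subunits 0 of 5 were called in any comparison with unstimulated neurons. In the activin pathway 3 of 14 fell, the receptors *Acvr2a* (-1.87, adjusted p = 0.043) and *Acvr2b* (-1.31, 0.0267) and the activin binder *Fstl3* (-1.34, 0.016), and 1 rose, the signal carrier *Smad3* (1.28, 0.0192). Median differences of these lists at 18/1 5 hr were -0.11 for the activin pathway, 0.10 for ARC-binding proteins and 0.02 for the Homer group. They were 0.185 for NPAS4 partners, 0.0036 for pentraxins and AMPA receptor subunits and 0.297 for other effector genes of activity. The median over all probes was -0.0047. Among 9 other effector genes of activity, *Bdnf*, a neurotrophin, rose by 2.37 at 18/1 5 hr (adjusted p = 0.000243). It was 0.92, 1.19 and 1.43 above unstimulated neurons at 18/1 2 hr, 90/5 2 hr and 90/5 5 hr, not past the threshold.

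The rapid transcription factors, set beside *Npas4* as a check of the stimulation, were 5 genes of another list chosen with earlier results known, of which 1 was higher at 18/1 2 hr, where 0.00507% of all probes were called. At 18/1 5 hr 3 were higher (25.4% of all probes called), at 90/5 2 hr 3 (1.37%) and at 90/5 5 hr 3 (0.0457%). *Nr4a1* was higher in all 4 stimulated conditions, by 4.54 (18/1 2 hr, adjusted p = 0.00212), 4.44 (18/1 5 hr), 4.76 (90/5 2 hr) and 5.51 (90/5 5 hr). *Fos* was higher by 4.01, 4.44 and 4.32 in the last 3 of these conditions, and at 18/1 2 hr its difference of 3.37 was not called (adjusted p = 0.0663). *Fosb* was called in the same 3 conditions (1.12, 1.77 and 2.39). *Egr1* was 2.71, 1.00, 2.71 and 3.18 above unstimulated neurons in the 4 conditions (SE 0.75) and was not called (adjusted p between 0.0875 and 1.00). *Junb* differed by 0.65, -0.61, 0.18 and 1.08 (SE 0.30) and was not called either.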

How the data were processed

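Gene expression was measured on 10 Agilent arrays with 2 colours, which hold 20 samples of cultured mouse neurons. The authors deposited the scanner output of each array, made with Agilent Feature Extraction 10.7.1.1 (slide 1) and 10.7.3.1 (slides 2 and 3) per the file headers, as spot and background intensity on a linear scale, unpooled, with probe coordinates on build mm9. The deposited flags for background, saturation and uniformity, which are yes or no values, were used to describe spots.

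From these, the mean intensity was corrected by normexp with an offset of 50, normalized by loess within arrays (control spots at weight 0) and by Aquantile between arrays, and taken as log2 per colour, with the spots of a probe averaged (R 4.3.3, limma 3.58.1). Such normalization assumes that most probes do not shift one way. lmFit and eBayes were run on 39429 probes and 20 samples, with condition means, a colour term and the array as a random block (correlation 0.737), and p-values were Benjamini-Hochberg adjusted within each of 8 comparisons. Non-uniform and saturated spots were kept. A member was tested by its brightest probe. The samples of 18/1 5 hr and 90/5 2 hr are named by array and colour, since the labels do not settle which colour held which replicate. The deviations of same-numbered samples from their condition means correlated in 4 of 4 pairs of unstimulated and 18/1 2 hr (r 0.34 to 0.50), where a number also stands for 1 colour. As an alternative, the replicate number was a block in a fit of these conditions and 90/5 5 hr together. That fit had no array block and no colour term. The methods' t-test also asks for a change of 1.4-fold.

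The members and lists were chosen with earlier results of these data known. Genes named for likeness are the 3 with the highest Pearson correlation to a member over 20 samples among 16591 gene names with a probe well above background in a whole condition. Pathway genes are named where called against unstimulated neurons, at most 4 per list. On simulated data for 18/1 5 hr against unstimulated neurons, 22, 40, 50 and 49 of 50 probes changed by 1, 2, 4 and 5 log2 units were recovered, with 8 false calls among 39429 probes. The simulation gave a probe the same spread in all conditions, with no slide effect and no non-uniform spots. Its false calls therefore do not measure those in the real comparison. The number of arrays limits the precision. Alternatives covered background correction, normalization, filters, colour and array terms, slides left out, weights, replicate block, tests and leaving out each sample and array. Promoters (RefSeq, GRCm38.p6) were read with Python 3.11.15, and the plots were drawn with matplotlib 3.10.9. Some culture details and marker genes are not reported here.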

Additional observations from a re-analysis of the deposited data

Results flagged for a closer look

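By the interaction term of the limma fit, the difference between 90/5 and 18/1 changed from 2 hr to 5 hr for 3 of the 10 probes. This is near the share over all probes, 26.2%. The interaction sets slides 1 and 3 against slide 2, so an effect of the slide cannot be told apart from it. A_55_P2147696 of *Nptx2* had an interaction of 3.64 on the log2 scale (SE 0.77, adjusted p = 0.00273), A_55_P1982122 of *Homer1* 1.35 (SE 0.32, adjusted p = 0.00568) and A_66_P104134 of *Homer1* 1.24 (SE 0.44, adjusted p = 0.0467). The brightest probes of both genes had 0.50 and -0.19 and were not called. At 18/1 5 hr A_55_P1982122 was well above background in 1 of 4 samples and A_55_P2147696 in 2 of 4. A_66_P104134 had 3 of 4 spots marked non-uniform in that condition.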

How the results depend on the processing

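No difference of a member called in the main setting changed sign under any alternative run. *Homer1* at 18/1 5 hr against 18/1 2 hr, not called there, was called higher with array weights (0.60). By A_55_P1982122 it was called lower (-0.998). A change of sign between uncalled values within 1 SE of 0 was counted as no change, which applied 72 times. At 18/1 2 hr against unstimulated neurons, 1 member in place of 0 was called with scanner processed signals, median centring alone, the methods' filter in 1 condition, no colour term and no array block. The same held with array means, slide 2 left out, array weights and the unadjusted methods' t-test. It also held with slide 1 alone and the 2 conditions alone, which are the same fit. At 18/1 5 hr against unstimulated neurons it was 1 in place of 2 with the methods' filter in all samples (which removes *Npas4*), array weights, the 2 conditions alone and the adjusted methods' t-test. At 90/5 2 hr and at 90/5 5 hr it was 0 in place of 1 with that filter and with the adjusted t-test, and 2 with no array block and with the unadjusted t-test. The unadjusted t-test called 1 member in place of 0 for 90/5 2 hr against 18/1 2 hr. For 90/5 5 hr against 18/1 5 hr, 4 members in place of 1 were called with median centring alone and with no array block, 2 with the methods' filter and the unadjusted t-test, and 0 with saturated probes left out, no colour term, array means and the 2 conditions alone. With array weights and with the adjusted t-test the count stayed at 1, but *Nptx2* was called there and *Inhba* was not (adjusted p = 0.109 and 0.0778). For 18/1 5 hr against 18/1 2 hr, 2 in place of 1 were called with median centring alone and array weights, and 0 with the 2 conditions alone and the adjusted t-test. The cause was not tested, other than where a filter removes the member. These counts stand without the share of all probes called in the same fits, so they are not a result about the members. In the main setting, 24.9% to 26.8% of all probes were called in the comparisons of the 18/1 5 hr samples.

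Leaving out each sample or array in turn gave 0 to 1, 1 to 2, 0 to 1 and 0 to 1 members called in the 4 comparisons with unstimulated neurons (18/1 2 hr, 18/1 5 hr, 90/5 2 hr, 90/5 5 hr), 0 to 0 and 0 to 1 between the patterns at 2 hr and 5 hr, and 0 to 1 and 0 to 0 between the times for 18/1 and 90/5. The call of *Inhba* between the patterns at 5 hr was lost in 20 of 30 such fits. A fit that leaves 1 array in a condition assumes that it varies like the others. The leave-out counts also stand without the share of all probes called in the same fits.

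The differences of *Homer1* and *Nptx2* that turned sign were not called in the main setting. For *Homer1* at 18/1 5 hr against unstimulated neurons they were -0.84 with processed signals and -0.46 with median centring. By probes A_66_P104134 and A_55_P1982122 they were -0.60 and -0.91. The sign of A_55_P1982121 is not read in any of these comparisons, since this probe was at or near background. At 90/5 2 hr A_66_P104134 gave -0.61 against unstimulated neurons and -0.55 against 18/1 2 hr. In the same comparisons A_55_P2147696 of *Nptx2* gave -0.92 and -0.90. The fitted values of A_55_P1982121 there were -0.24 and -0.23. They cannot show a turn of sign, since 0 of 4 90/5 2 hr samples were well above background. For 18/1 5 hr against 18/1 2 hr, *Homer1* was -0.59 with processed signals and -0.20 with median centring. By A_66_P104134, A_55_P1982122 and A_55_P2122789 it was -0.54, -0.998 and -0.22. The fitted value of A_55_P1982121 was -0.21, with 1 of 4 samples of each condition well above background, and cannot show a turn of sign either. For 90/5 5 hr against 18/1 5 hr *Homer1* was -0.24 with array weights and -0.45 to 0.57 with samples left out. *Nptx2* at 18/1 5 hr against unstimulated neurons ran from -0.53 to 0.40 with samples left out.

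Same-numbered samples of the 3 conditions whose numbers the labels tie to a colour correlated above 0.1 in 4 of 4 pairs of unstimulated and 18/1 2 hr, and in 1 of 4 and 2 of 4 pairs with 90/5 5 hr, and 10 of 12 samples correlated best with their own number. The numbers were therefore read as pairs for 18/1 2 hr against unstimulated neurons and not for 90/5 5 hr. The replicate block was fitted to the 3 conditions together, without the array block or colour term. It thus also pairs 90/5 5 hr and treats samples of an array as independent, which limits both results below. With the replicate block, 1 member was called at 18/1 2 hr (*Npas4*, adjusted p = 0.000469) and 2 at 90/5 5 hr (*Arc* with adjusted p = 0.029, and *Npas4*).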
